A study of Danio rerio with 15 samples.

Results

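The comparison described here set zebrafish embryos kept in 10 μg/l dibutyl phthalate (DBP) against unexposed embryos (0 μg/l), over all transcripts of the deposited count table. It used 5 of the 15 libraries of the series, namely the pools 10A, 10B and 10C at 10 μg/l and the controls 0D and 0E. Of the 46488 transcripts in the table, 30514 (65.6%) had at least 10 counts in 2 or more of these 5 libraries and were tested. Of the other 15974 transcripts, 8818 held no count in any of the 5.

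Each library came from a pool of 10 wild-type embryos of the AB strain and was made from poly-A RNA with a directional kit. Exposure began in the blastula and lasted 120 h, in 5 replicate beakers for each dose. The sources used here do not say which beaker gave which pool. The exposed embryos had DBP in the water at 10 μg/l and the controls had the same water with none, and no solvent was used in either. The libraries were those of the pools with the best RNA at each dose, the dose series being 0, 5, 10, 50 and 100 μg/l. For the libraries titled 50 μg/l, the protocol text of the labels gives another concentration, and the titles were followed. Whole embryos were sequenced, so fewer cells of a type and less RNA per cell cannot be told apart. The transcripts were matched here to a gene only for 15 of them, and lists of tissue markers were therefore not analysed here.

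DBP is a plasticiser of the phthalate class, best known in mammals for disturbing androgen-dependent development of the male. The labels give the protruding mouth stage at sampling, when a zebrafish has formed its muscle, heart and eyes. The genes with a name in this comparison belong to 4 kinds. Retinoic acid, a vitamin A product that patterns the hindbrain, heart and fins, is degraded by the Cyp26 enzymes and acts through receptors that pair with retinoid X receptors. Of the chaperone and muscle genes, unc45b and hspa4b help fold myosin and other proteins, while trim101 is of the tripartite motif family. The membrane and adhesion genes include those of cell junctions and cell adhesion, a scaffold that holds transporters at the cell surface and a Golgi membrane protein. The remaining genes include those of metabolism, DNA repair and cell survival.

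The remaining control, 0B, stood apart from all libraries and entered only as a check. The deposited labels mark 0D as the outlier, whereas in the values it was 0B that lay far off. Across transcripts, the Pearson correlation of log2(CPM + 0.5) of 0B with the other 5 libraries lay between 0.842 and 0.875, where CPM is the count scaled to a common library total. This and the following correlations are across transcripts of single libraries and describe those libraries. The total counts lay between 21.04 and 26.21 M in the 3 libraries at 10 μg/l, and were 25.85 and 25.94 M in 0D and 0E. Between 32488 and 33379 transcripts were detected at 10 μg/l, against 33119 and 33249 in the controls.

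The 3 pools at 10 μg/l were not alike. The pools 10A and 10B correlated at 0.953 with each other, and the controls 0D and 0E at 0.957. The pool 10C correlated at 0.918 with 10A and at 0.913 with 10B, but at 0.95 with 0D and at 0.952 with 0E. It was thus nearer to both controls than to the other pools of its own dose. It was also the most deeply counted of the 5 libraries. The pools 10A and 10B correlated with the controls at 0.885 to 0.916.

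**Figure D1:**
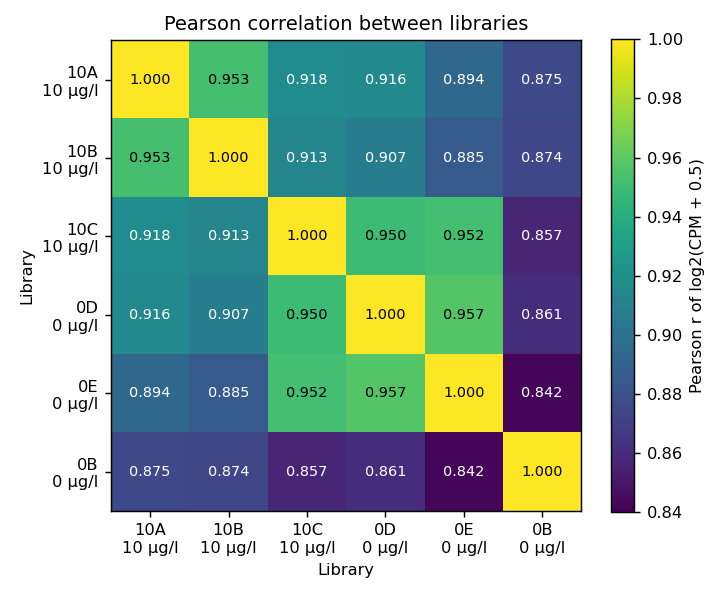
Pearson correlation of log2(CPM + 0.5) between the 3 libraries at 10 μg/l, the controls 0D and 0E, and the control 0B, each square giving 1 pair of libraries. 10C shares higher correlations with 0D (0.95) and 0E (0.952) than with 10A (0.918) and 10B (0.913), and 0B is the lowest with every other library.

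With all 5 libraries, no transcript passed the threshold, neither higher nor lower at 10 μg/l (0.0% of 30514 in each direction, edgeR's quasi-likelihood test with Benjamini-Hochberg adjustment, threshold 0.05). The smallest adjusted p was 0.0784. At an unadjusted p under 0.05, 1949 transcripts (6.39%) passed, with 1092 (3.58%) higher and 857 (2.81%) lower at 10 μg/l. The median log2 fold change over all transcripts tested was 0.000919, and 12.1% of them differed by 2-fold or more. On the same 5 libraries, DESeq2 called 320 transcripts (191 higher and 129 lower at 10 μg/l) and limma on log2(CPM + 0.5) called 36 (17 higher and 19 lower). In a simulation of 3 against 2 libraries, edgeR recovered 64% of simulated 4-fold changes and 8% of simulated 2-fold changes among 29548 transcripts. Changes of about 2-fold were thus mostly not detectable even in the simulation. The simulated pools differed by the fitted spread alone, taken from the 5 libraries with 10C (median dispersion 0.169, against 0.102 without 10C). None of the simulated pools was like 10C, and only transcripts above a level of counts were changed. For 2 against 2 libraries, with the spread fitted without 10C, recovery was higher, at 76% and 33%. Recovery in the real pools was not measured, and the absence of calls does not show that 4-fold changes were absent.

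The pool 10C decided the number of calls. Without it, 2424 of 29759 transcripts (8.15%) passed the same test, of which 653 (2.19%) were higher and 1771 (5.95%) lower in 10A and 10B than in 0D and 0E. Leaving out 10A, 10B, 0D or 0E in its place gave 0 calls each time, with 3.69%, 3.7%, 3.5% and 2.51% of transcripts at an unadjusted p under 0.05. The library left out was picked because its values lay near the controls, and such a choice lowers the p-values of what remains. The 2424 calls therefore describe how 10A and 10B differed from 0D and 0E, and do not stand for the dose. Dropping any single one of these 4 libraries as well, or adding 0B to the controls, brought the number back to 0. At an unadjusted p under 0.05, by contrast, there were 31.7% of the transcripts in the 4 libraries, 30.3% without 10A, 24.4% without 10B, 24.6% without 0D, 18.6% without 0E and 14.3% with 0B added.

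**Figure D2:**
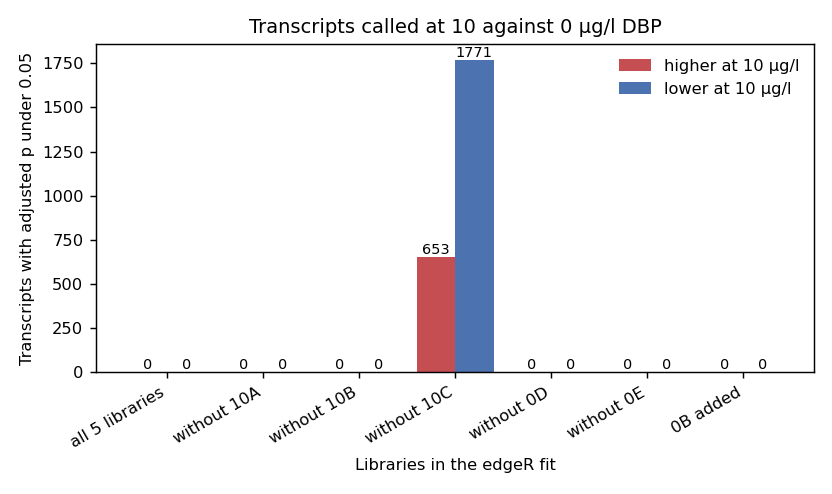
Number of transcripts with an adjusted p under 0.05 in edgeR's quasi-likelihood test, higher (red) or lower (blue) at 10 than at 0 μg/l, for the 5 libraries and with 1 library left out or added. Calls appear in 1 of the 7 fits, the one without 10C, with 653 transcripts higher and 1771 lower.

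The transcripts called without 10C were not a mirror image in the 2 directions. The 1771 lower transcripts had a median log2 fold change of -1.83 (quartiles -2.9 and -1.19), and 83.5% of them differed by 2-fold or more. The 653 higher ones had a median of 0.87 (quartiles 0.704 and 1.95), and 41.7% reached 2-fold. Lower calls were thus more numerous and larger in edgeR's test. The imbalance was smaller with the other tools on the same 4 libraries, with 3702 higher and 4656 lower in DESeq2 and 1331 higher and 2687 lower in limma. In 10A and 10B, 202 of the 1771 lower transcripts held no count. Of the 653 higher ones, 140 held none in 0D and 0E, a larger share of their set. Of the 30514 transcripts tested in the 5 libraries, 572 held none in 10A and 10B and 351 held none in 0D and 0E.

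Calls were spread over the range of expression. Among transcripts with a mean of at least 100 CPM in the 5 libraries, 8.5% were lower and 3.52% higher in 10A and 10B. The shares were 8.04% and 3.73% between 10 and 100 CPM, 5.18% and 1.12% between 1 and 10 CPM, and 1.74% and 1.12% below 1 CPM. In all 4 classes more transcripts were lower than higher. Reads that match more than 1 transcript are split among these by Salmon, and 73.8% of the higher and 55.1% of the lower transcripts carried such divided counts, against 61.1% of all transcripts tested. A transcript was taken to carry them if its estimated count was not a whole number in at least 1 of the 5 libraries.

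The pool 10C itself showed little of this difference, which restates why it was left out and is given as a description. It lay beyond both controls in the direction of 10A and 10B for 417 of the 653 higher transcripts (63.9%) and for 895 of the 1771 lower ones (50.5%). It lay on the opposite side of both controls for 60 and 285 of them. The distance was short in most cases, with a median of 18.5% of the way from the controls to 10A and 10B for the higher transcripts and 8.85% for the lower ones. It was on their side of the midpoint for 17.2% of the higher and 7.62% of the lower transcripts.

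The same transcripts were then followed in all libraries. Of these, 10A, 10B, 0D and 0E chose them, and 10C was left out of that choice for its place near the controls. For the 1771 lower transcripts, the median log2 difference from the mean of 0D and 0E was -0.442, -0.391 and -0.00226 in the 3 pools at 5 μg/l (5A, 5B and 5E). At 10 μg/l it was -1.58, -1.7 and -0.134 in 10A, 10B and 10C. It was -1.34, -1.41 and -0.71 in 50A, 50B and 50D at 50 μg/l, and -1.37, -0.861 and -0.112 in 100A, 100C and 100E at 100 μg/l. The pools of a dose were thus far apart at 10, 50 and 100 μg/l alike, and the order followed the replicate letter. At every dose the pools lettered A or B had a more negative median than those lettered C, D or E, and among the controls it was -0.95 in 0B, -0.117 in 0D and 0.117 in 0E. The comparison of 10A and 10B with 0D and 0E is one of letters as well as of concentrations, and these cannot be told apart in it. What a letter stands for is not given in the sources used here. A fit with the letter as a block over the 14 libraries without 0B was added after this order had been seen. In it edgeR called 0 transcripts (1507, 4.94%, at an unadjusted p under 0.05). The same 14 libraries without the block gave 13 calls (4138, 13.6%, at an unadjusted p under 0.05). No letter is shared by the pools at 10 μg/l and 0D or 0E, so the block fit links them only through other doses. That fit assumes that a letter shifts all doses alike, which was not tested, so its 0 calls do not decide between letter and concentration. The share of the transcripts on the side of 10A and 10B, seen from the midpoint to the controls, was 7.62% in 10C, 44.8% in 50D, 56.6% in 100C and 9.43% in 100E, against 91.9% in 50A, 91.5% in 50B and 89.0% in 100A. At 5 μg/l it was 23.3% in 5A, 19.3% in 5B and 3.73% in 5E. The pools 5A and 5B thus had smaller shares than 50D and 100C, so the letter alone did not order the pools across doses.

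The 653 higher transcripts gave the same order of letters with smaller values. Their median difference was 0.27, 0.282 and 0.0 in 5A, 5B and 5E, then 0.831, 0.911 and 0.137 in 10A, 10B and 10C. In 50A, 50B and 50D it was 0.704, 0.625 and 0.434, and in 100A, 100C and 100E it was 0.623, 0.375 and 0.0. The control 0B, which was not used to choose the transcripts, lay at 0.535 for the higher and -0.95 for the lower transcripts. It was on the side of 10A and 10B for 72.1% of the higher and 68.2% of the lower transcripts, a larger share than 10C in both directions. The choice of these transcripts with 0D and 0E favours such a place, and no share over all tested was taken beside it. Whether the labels of 10C and 0B are right was not tested. The transcript ENSDART00000137707.3 had 55.6 CPM in 10C and 1.18 CPM in 0B, as their labels would place them. It was picked by the smallest p of a fit that included 10C, so its level there says nothing on that label. In the other IDs picked by smallest p, 0B lay away from 0D and 0E. There 0B had 176.0 CPM of ENSDART00000173698.2, 12.8 CPM of ENSDART00000173554.2 and 0.689 CPM of ENSDART00000047401.8. All doses are set against the same 2 controls, so these values are given side by side without a test.

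**Figure D3:**
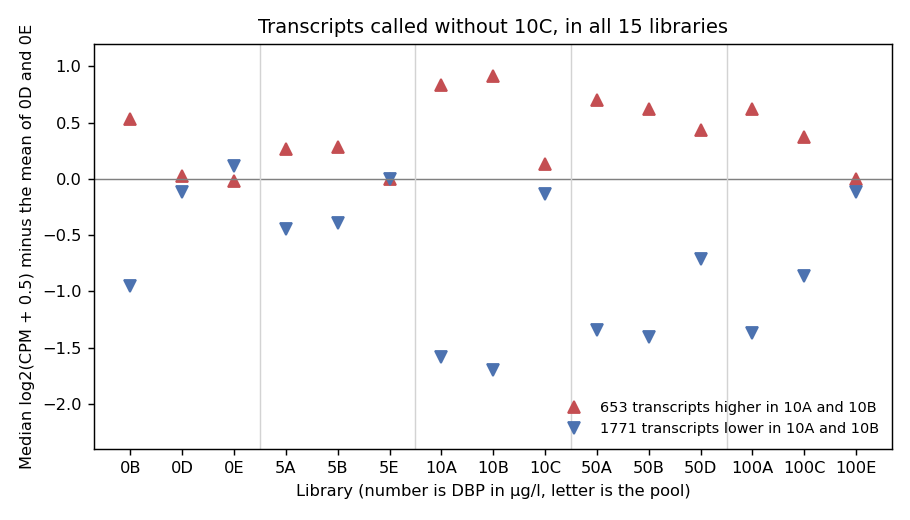
Median log2(CPM + 0.5) of each library minus the mean of 0D and 0E, over the 653 transcripts called higher (red, up) and the 1771 called lower (blue, down) without 10C; 10A, 10B, 0D and 0E chose the transcripts. 10C lies at 0.137 and -0.134, near the controls, and the control 0B at 0.535 and -0.95, toward 10A and 10B.

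Without regard to a test, the 3 pools at 10 μg/l lay above both controls for 4912 transcripts (16.1%) and below both for 4587 (15.0%). With a fitted fold of 2 or more in addition, 612 (2.01%) lay above and 1436 (4.71%) below. Lower transcripts again outnumbered higher ones at the larger folds. For the 612, the median log2 difference from the controls was 1.23, 1.39 and 0.973 in 10A, 10B and 10C, and for the 1436 it was -1.54, -1.68 and -0.599. The pool 10C was thus smaller in both, although the choice asked it to lie outside the controls. The control 0B lay on the side of the 10 μg/l pools for 66.7% of the 612 and 75.8% of the 1436, which 0D and 0E had helped to choose.

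A small set of transcripts was present at one concentration and at 0 at the other. There were 76 transcripts (0.249%) with no count in 0D and 0E and at least 10 counts in 10A, 10B and 10C. Another 107 (0.351%) had no count in 10A, 10B and 10C and at least 10 counts in 0D and 0E. Together the 76 held 42237, 34400 and 46992 counts in 10A, 10B and 10C, and the 107 held 43472 and 40197 counts in 0D and 0E. One transcript made up a large part of each sum. Transcripts with divided counts were more frequent here, at 96.1% of the 76 and 96.3% of the 107, against 61.1% of all tested.

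These switches were shared only in part with the other doses. Of the 76, 25 had at least 10 counts in all 6 pools at 50 and 100 μg/l, 8 had them in all 3 pools at 5 μg/l, and 20 were at 0 in all 3 at 5 μg/l. In 0B, labelled as a control, 49 of the 76 (64.5%) had at least 10 counts. Of the 107, 35 were at 0 in all 6 pools at 50 and 100 μg/l, and 14 in all 3 at 5 μg/l. In 0B, 55 of the 107 (51.4%) were at 0. Presence at 10 μg/l with absence in 0D and 0E was thus in most cases not absence in every control.

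The clearest case in each direction was picked after its values had been seen, by the smallest p among transcripts at 0 in one group. ENSDART00000173698.2 had 17931, 14478 and 18587 counts in 10A, 10B and 10C, against 0 counts in 0D and in 0E. Its mean of 738.9 CPM was at least 6601-fold higher than the level that 3 counts per control library would give. All 3 pools lay above both controls, and 10C was like 10A and 10B. The transcript had 4114 counts in 0B, and 0, 0 and 5551 counts in 5A, 5B and 5E. Every pool at 50 and 100 μg/l held it, with 540.0 to 778.0 CPM, so its presence also varied among the pools labelled as controls. Its adjusted p was 0.0784 with 10C and 0.0283 without it (edgeR).

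ENSDART00000173554.2 had 0 counts in 10A, 10B and 10C, against 26515 and 24375 counts in 0D and 0E. It was at least 7252-fold lower at 10 μg/l, taking 3 counts per library as the limit in the exposed pools. It was at 0 in all 6 pools at 50 and 100 μg/l as well, and had 30450, 24964 and 21064 counts in 5A, 5B and 5E. The control 0B held 300 counts, far fewer than 0D and 0E. Its adjusted p was 0.0784 with 10C and 0.0283 without it (edgeR).

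A pair of transcripts with counts in all 5 libraries was picked in the same way. ENSDART00000137707.3 had 53.2, 61.3 and 55.6 CPM in 10A, 10B and 10C, against 3.93 and 2.2 CPM in 0D and 0E, a log2 fold change of 4.19 ± 0.301 (SE, n = 3 and 2, edgeR adjusted p = 0.11). The groups were far apart and 10C lay among its own dose, which the choice by the smallest p favours. It had 4.61, 2.08 and 7.1 CPM at 5 μg/l, 62.0 to 81.1 CPM at 50 μg/l and 74.1 to 85.6 CPM at 100 μg/l. In 0B it had 1.18 CPM, so that here 0B lay with the other controls. The pools at 0 and 5 μg/l lay apart from those at 10 to 100 μg/l. Within these ranges, 5 μg/l overlapped the controls and 50 μg/l overlapped 100 μg/l. Without 10C the log2 fold change was of like size, 4.21, while the adjusted p was 0.0283.

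ENSDART00000047401.8, the lower one of the pair, had 3.0, 2.37 and 3.93 CPM in 10A, 10B and 10C, against 15.4 and 24.0 CPM in 0D and 0E. The log2 fold change was -2.68 ± 0.319 (SE, n = 3 and 2, edgeR adjusted p = 0.334). All pools at 10 μg/l lay below both controls, yet 0B had 0.689 CPM, lower than any of them. It had 3.6, 4.33 and 17.4 CPM at 5 μg/l and at most 5.48 CPM at 50 and 100 μg/l. Without 10C its adjusted p was 0.0331.

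The 15 transcripts with a gene name passed the filter, and none passed the test in the 5 libraries (edgeR). At 10 μg/l, 8 had a fitted level above and 7 below the controls, and 5 had groups that did not overlap (4912 transcripts, 16.1%, above and 4587, 15.0%, below over all tested). At an unadjusted p under 0.05 there were 2 of the 15, cyp26a1 and slc9a3r1a (6.39% of all tested). Without 10C, 1 of them, dap, passed with an adjusted p under 0.05 (8.15% of all tested). The study drew 11 of the 15 from its own list of transcripts that changed along the doses of these libraries and counts cyp26a1 and rxraa among such transcripts too, so that their values here are no independent evidence.

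Of the retinoid genes, cyp26a1, which encodes the main retinoic acid-degrading enzyme of the early embryo, differed most. It had 20.4, 21.1 and 19.0 CPM in 10A, 10B and 10C, against 15.7 and 13.2 CPM in 0D and 0E. All 3 exposed pools lay above both controls, 10C included. The log2 fold change was 0.46 ± 0.135 (SE, n = 3 and 2, edgeR unadjusted p = 0.0188, adjusted p = 0.604). It was 0.50 without 10C, with an adjusted p of 0.087. The control 0B had 15.5 CPM, also below the exposed pools. Along the doses, cyp26a1 had 16.5 to 18.7 CPM at 5 μg/l, 18.8 to 19.7 CPM at 50 μg/l and 12.9 to 15.0 CPM at 100 μg/l, so that the pools at the highest dose were back at the level of the controls.

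The other Cyp26 enzymes overlapped between the groups. The transcript of cyp26b1, whose enzyme limits retinoic acid in the hindbrain and the skeleton, had 22.8, 25.4 and 24.9 CPM in 10A, 10B and 10C, against 23.1 and 21.9 CPM in 0D and 0E (log2 fold change 0.10 ± 0.113, SE). That of cyp26c1 had 10.4, 9.13 and 8.21 CPM at 10 μg/l, against 8.31 and 8.39 CPM in the controls (0.13 ± 0.169, SE). In cyp26c1 the pool 10C lay below both controls while 10A and 10B lay above. The receptor transcript rxraa had 7.23, 9.68 and 8.33 CPM, against 9.45 and 10.5 CPM, a log2 fold change of -0.27 ± 0.18 (SE) with 10B inside the range of the controls.

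Among the membrane and adhesion genes, slc9a3r1a had the widest difference of all 15. It encodes the scaffold NHERF1, which ties membrane transporters to the actin cortex. It had 13.1, 13.4 and 17.9 CPM in 10A, 10B and 10C, against 21.2 and 29.3 CPM in 0D and 0E. The groups did not overlap, and 10C was the nearest to the controls. The log2 fold change was -0.79 ± 0.232 (SE, n = 3 and 2, edgeR unadjusted p = 0.0193, adjusted p = 0.604), and -0.95 with an adjusted p of 0.0604 without 10C. The control 0B had 16.2 CPM, within the range of the exposed pools. The 3 pools at 50 μg/l had 12.9, 14.2 and 15.9 CPM, and those at 100 μg/l 13.4, 13.0 and 17.6 CPM.

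The other genes of this kind overlapped. The claudin transcript zgc:112437 (cldn29 in the gene table), of the tight junction family, had 12.7, 10.3 and 7.77 CPM in 10A, 10B and 10C, against 8.0 and 8.28 CPM in 0D and 0E, with 10C below both controls. The log2 fold change was 0.31 ± 0.245 (SE). That of cdh11, a cadherin of mesenchymal cells, was -0.13 ± 0.122, with 78.9, 90.4 and 92.8 CPM at 10 μg/l and 97.6 and 90.6 CPM in the controls. That of yipf2, which encodes a Golgi membrane protein, was 0.24 ± 0.176, with 25.3, 22.1 and 19.1 CPM at 10 μg/l and 16.8 and 20.2 CPM in the controls. In all 3, 10C lay within the range of the controls or across it.

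The transcript of dap, a gene linked in human cells to cell death and autophagy, was the one named transcript called without 10C. It had 10.2, 10.7 and 16.9 CPM in 10A, 10B and 10C, against 17.9 and 22.0 CPM in 0D and 0E. All exposed pools lay below both controls, with 10C close to 0D. The log2 fold change was -0.67 ± 0.282 (SE, n = 3 and 2, edgeR adjusted p = 0.604), and -0.95 ± 0.157 (SE, n = 2 and 2, edgeR adjusted p = 0.0467) without 10C. The control 0B had 16.4 CPM, just below 10C. The pools at 5 μg/l had 14.3, 16.3 and 18.2 CPM, those at 50 μg/l 10.3, 9.73 and 14.1 CPM and those at 100 μg/l 11.6, 12.7 and 14.9 CPM.

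**Figure D4:**
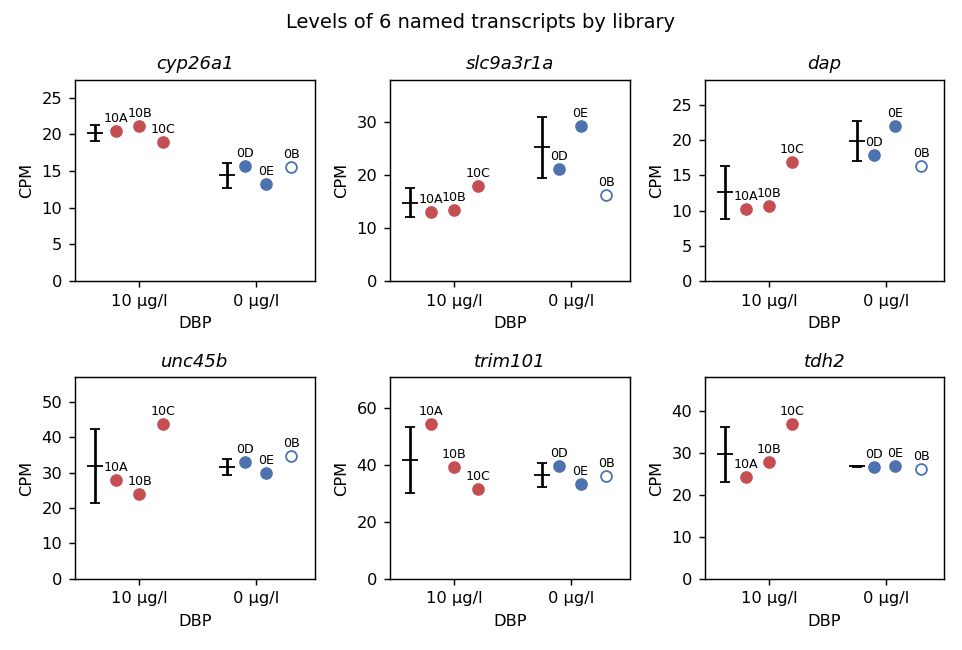
CPM of 6 named transcripts in each library at 10 μg/l (red, left) and 0 μg/l (blue, right; 0B open), with the mean and SD of 10A, 10B and 10C and of 0D and 0E beside them. The pools at 10 μg/l are apart from 0D and 0E for cyp26a1, slc9a3r1a and dap, and 10C stands away from 10A and 10B for dap (16.9 CPM), unc45b (43.8 CPM) and tdh2 (36.9 CPM).

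Among the chaperone and muscle genes, unc45b set 10C apart from its own dose. The transcript of unc45b, whose protein folds myosin in muscle, had 27.9, 23.9 and 43.8 CPM in 10A, 10B and 10C, against 33.1 and 29.9 CPM in 0D and 0E. Below both controls in 10A and 10B and above both in 10C, it averaged to a log2 fold change of -0.000319 ± 0.299 (SE), and to -0.30 ± 0.128 without 10C. At 50 μg/l it had 34.3, 42.5 and 42.9 CPM and at 100 μg/l 48.9, 66.1 and 70.9 CPM, so that 10C was close to 50B and 50D in this transcript. The control 0B had 34.7 CPM.

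The transcript of trim101, of the tripartite motif family, went the other way. It had 54.4, 39.3 and 31.5 CPM in 10A, 10B and 10C, against 39.5 and 33.4 CPM in 0D and 0E (log2 fold change 0.18 ± 0.262, SE). Only 10A lay above both controls, and 10C was below both. The heat shock protein transcript hspa4b, of the Hsp110 kind, had 163.0, 170.0 and 172.0 CPM at 10 μg/l, against 187.0 and 172.0 CPM in the controls. Before rounding, 10C lay just below 0E, so the groups did not overlap. The log2 fold change of hspa4b was -0.11 ± 0.103 (SE), and 0B had 144.0 CPM, lower than all 5.

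The remaining 3 transcripts differed by less than their error or little more. That of tdh2, a threonine dehydrogenase, had 24.2, 27.9 and 36.9 CPM in 10A, 10B and 10C, against 26.7 and 26.8 CPM in 0D and 0E, and its log2 fold change changed sign with 10C, being 0.13 ± 0.212 with it and -0.06 ± 0.108 without it (SE). That of pms1, a mismatch repair gene, had 6.15, 6.39 and 6.77 CPM, against 5.12 and 6.09 CPM (0.18 ± 0.181, SE). The groups did not overlap for pms1, but the gap between 10A and 0E was small. That of mid1ip1l, which the mother supplies for the first cleavages in zebrafish, had 19.7, 17.5 and 17.2 CPM, against 18.2 and 19.4 CPM (-0.07 ± 0.131, SE).

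**Figure D5:**
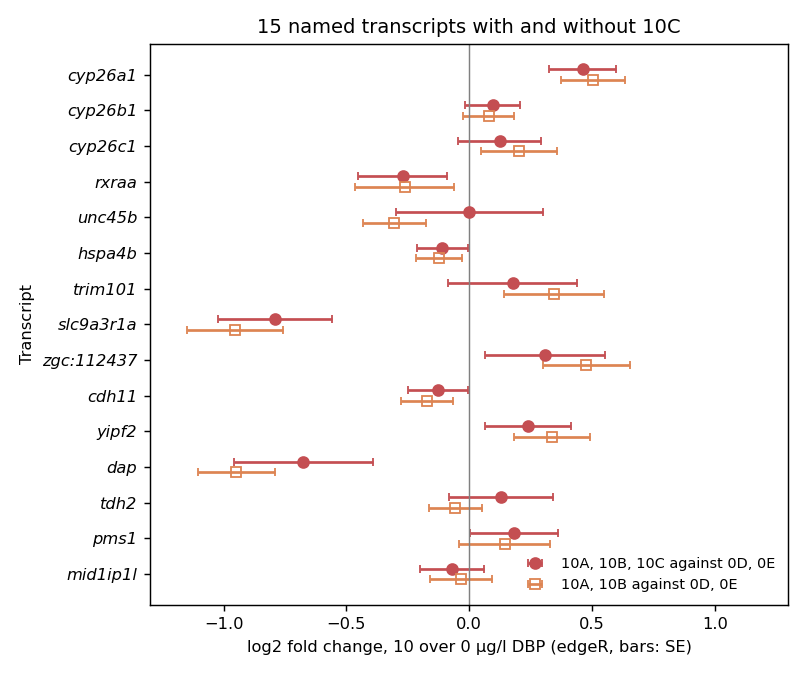
Log2 fold change of the 15 named transcripts at 10 over 0 μg/l with 10C (filled circles) and without it (open squares), bars giving the SE derived from edgeR's fit. The widest differences are those of slc9a3r1a (-0.79 with and -0.95 without 10C) and dap (-0.67 and -0.95), and unc45b lies at 0 only with 10C.

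Fold changes varied with the length of the coding sequence. The median log2 fold change was -0.0123 for the 5203 transcripts of up to 600 bases and 0.255 for the 227 transcripts above 9000 bases. It was -0.0276 for 600 to 1200 bases, -0.0152 for 1200 to 2400 bases, 0.059 for 2400 to 4800 bases and 0.14 for 4800 to 9000 bases, so that the rise began above 2400 bases. Yet without 10C, 9.33% of the transcripts above 9000 bases were called lower and 5.78% higher. From 4800 to 9000 bases the shares were 8.37% and 3.01%, and over all tested 5.95% and 2.19%. Lower calls thus outnumbered higher ones among the longest transcripts despite the positive median. The shift of the longest transcripts was present in all 3 pools, with a median of 0.131 in 10A, 0.419 in 10B and 0.176 in 10C. It was also seen in 5A (0.294) and 5B (0.177), but not in 5E (-0.00239), and was 0.0655 in 0B. It was 0.242, 0.148 and 0.0724 in 50A, 50B and 50D, and -0.046, 0.0 and 0.126 in 100A, 100C and 100E, so that it was absent in 100A and 100C. An effective length is derived by Salmon for each library. It was compared only in the 18977 longer transcripts of those tested, the shorter ones being left out. Its log2 difference from the mean of 0D and 0E had an SD of 0.0638 to 0.0834 at 10 μg/l. In this measure 10C (0.0638) lay near 10A (0.0661). The SD was 0.0262 to 0.0313 at 5 μg/l, 0.0798 to 0.117 at 50 μg/l and 0.0938 to 0.116 at 100 μg/l. Every pool at 10 μg/l or more thus had a larger SD than the pools at 5 μg/l. It was 0.0954 in the control 0B. A wide spread was thus not confined to exposed pools. The 0.0168 in 0D and 0E is small by construction, since each is set against the mean of both. Over these 18977 longer transcripts the mean difference at 10 μg/l correlated at -0.022 with the log2 fold change, which is given as a description and does not cover the shorter ones. The part of effective length in the results was not tested.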

How the data were processed

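Poly-A RNA was measured in 15 libraries, 3 at each of 5 DBP concentrations, of which 5 are compared here. Reads were filtered with Trimmomatic and assigned to the zebrafish reference transcriptome with Salmon 1.5.1, and the authors deposited the estimated counts per transcript, unscaled, in one table. They also deposited TPM values, in which Salmon corrects for effective length and library total, in 1 file per library. TPM served only in an alternative. Other columns that the authors deposited hold transcript lengths. Counts agreed between both kinds of file within 9e-11. The control 0B was read with decimal commas. Of the lengths, 92.5% are multiples of 3, so they are given as coding length.

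Counts were rounded to whole numbers. Transcripts with at least 10 counts in 2 or more libraries were scaled by TMM and tested with edgeR 4.0.16 (glmQLFit, glmQLFTest), 10 over 0 μg/l, with Benjamini-Hochberg adjustment over all transcripts tested and a threshold of 0.05. DESeq2 1.42.0, limma 3.58.1 on log2(CPM + 0.5) or log2(TPM + 1), other filters, other scalings and other sets of libraries were alternatives. CPM values are scaled by TMM over all 15 libraries, except in limma's fit on log2(CPM + 0.5). That fit used DESeq2's size factors over its own libraries, so it differed from edgeR's in scaling as well as in test. SE is derived from edgeR's fit, as the absolute log2 fold change divided by the square root of the test's F statistic. On simulated counts for 3 against 2 libraries, 64% of 4-fold and 8% of 2-fold changes among 29548 transcripts were recovered, with 1 false call. For 2 against 2 it was 76% and 33% among 28837, with 10 false calls. The simulated pools differed by the fitted spread alone, with none like 10C, and changes were placed only in transcripts above a level of counts. That spread was fitted with 10C for 3 against 2 and without it for 2 against 2. The depth was 21.04 to 26.21 M counts, and 3 counts was taken as the limit behind a value of 0. The SE includes the spread between pools as fitted by edgeR, while the limit of 3 counts covers counting error only.

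The transcripts named are the 15 whose ID stands beside a gene name in the texts of the study read here, 11 of them with a gene ID that was found in the gene table. Genes that the study names without a transcript ID were not analysed here. The rule also asked for transcripts called in the 5 libraries, of which there were none, so 4 IDs were picked after their values had been seen. The members and lists were chosen with earlier results of these data known. The marker and pathway lists were not used here, since they need a gene for every transcript. No sequence or coordinate is given, since the gene table used here is of another assembly than the transcriptome. Software was R 4.3.3 and Python 3.11.15 with pandas 2.3.3 and matplotlib 3.10.9.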

Additional observations from a re-analysis of the deposited data

Results flagged for a closer look

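The control 0B was not used in the comparison, and its place is given here in the transcripts that separated 10A and 10B from 0D and 0E. It lay on the side of 10A and 10B for 72.1% of the 653 higher and for 68.2% of the 1771 lower transcripts, although it is labelled as a control. These transcripts were chosen with 0D and 0E, which favours such a place for other libraries. No share over all transcripts tested was taken beside it. For 10C, labelled as exposed, the shares were 17.2% and 7.62%, on transcripts chosen without it because it lay near the controls. Whether the labels of both pools are right was not tested. Of the 76 transcripts with counts in every pool at 10 μg/l and none in 0D and 0E, 49 had at least 10 counts in 0B.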

How the results depend on the processing

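In the 5 libraries, edgeR gave 0 calls with TMM and with DESeq2's size factors, with no filter on low counts, with edgeR's own filter, with 0B added, at an adjusted p under 0.01 and against a fold of 1.5. DESeq2's test called 320 transcripts, limma 36 on log2(CPM + 0.5) and 40 on log2(TPM + 1), and edgeR with all 14 libraries without 0B called 13. Of the 320, 202 were among the calls without 10C, as were all 36 of limma's and 12 of the 13. Every one of the 320, 36, 40 and 13 had groups that did not overlap, where 16.1% of all tested lay above and 15.0% below both controls. A small p on these libraries favours such transcripts, so this describes the calls only. Of the 36, 2 had counts in all 5 libraries, 15 were at 0 in both controls and 19 in all pools at 10 μg/l. Leaving out 1 library each gave 0 to 2424 calls, the highest without 10C. Without 10C, DESeq2's test called 8358, limma 4018 and edgeR with DESeq2's size factors 2432, while 0B added gave 0, an adjusted p under 0.01 gave 0, and leaving out 1 more library each gave 0 to 0, a set of fits added after the data had been seen. The lone library of an arm was there assumed to vary like the others. The 4 IDs picked after their values had been seen also moved between edgeR's fits. With 14 libraries, the adjusted p was 0.365 for ENSDART00000173698.2, 0.00444 for ENSDART00000173554.2, 0.00918 for ENSDART00000137707.3 and 0.459 for ENSDART00000047401.8. In that order it was 0.899, 0.899, 0.386 and 0.899 with 0B added, and 0.907, 0.74, 0.561 and 0.965 with the letter as a block. The sign of unc45b changed, with 0.000102 under DESeq2's size factors, 0.000121 in DESeq2's test and 0.0152 with 14 libraries. Leaving out 1 library each gave -0.304 to 0.181 for unc45b, -0.0673 to 0.347 for trim101 and -0.0574 to 0.255 for tdh2. The cause was not tested. No paired analysis was possible because the 5 pools share no letter, and 0B shares only 1. With the letter as a replicate block over 14 libraries, added after the data had been seen, there were 0 calls, and unc45b was at 0.0399. Counts summed per gene were not run, since transcripts were not matched to genes here. What limits the comparison is 2 controls, another that stood apart, and 3 exposed pools of which 1 resembled the controls. P-values set the difference between the groups against the fitted spread between these pools. Letter and concentration cannot be told apart in them.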
